A study of Mus musculus with 70 samples.

Results

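Immune cells from tumors ablated with histotripsy were compared here with immune cells from untreated tumors on the opposite flank, 7 days after treatment. B16F10, a mouse melanoma line, had been grown under the skin of both flanks of male and female C57BL/6 mice, and 1 tumor was partially ablated with histotripsy, a focused ultrasound method that breaks tissue apart mechanically without heating it. The histotripsy-treated group holds 3 libraries and the histotripsy-abscopal group, from the tumor left alone, holds 4, which are 7 of the 70 libraries of the series. The cells had been flow-sorted as CD45+, the surface protein that marks cells of the blood lineages. The 7 were chosen by their labels (fraction, day and tumor), with every named gene of their count table kept. A further 10 CD45+ day 7 libraries from sham-treated control tumors entered the fit for the estimate of the spread and are given below as the background. All animals carried the same transplanted tumor line and no transgene. The labels give neither the animal, its sex nor a batch for any library, so it is not known whether a histotripsy-treated and a histotripsy-abscopal library came from the same mouse. The study counts its groups in mice, but no label ties a library to an animal. The p-values measure only the spread between these libraries.

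After tissue is broken apart, neutrophils and monocytes usually enter first. They are drawn by CXC and CC chemokines, release interleukin 1 and TNF, and give way over days to macrophages that clear debris and to lymphocytes. An abscopal effect is a change in a tumor that was not itself treated, and in that setting it is usually ascribed to lymphocytes and interferons acting away from the treated site. The comparison asks whether the treated and the untreated tumors of treated mice still held different immune transcripts at 7 days. In bulk RNA from sorted cells, fewer cells of a type and less RNA per cell cannot be told apart.

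RNA was measured by QuantSeq, which reads the 3′ end of each transcript, and the authors deposited whole-number counts per gene after collapsing unique molecular identifiers. The 7 libraries held between 896229 and 2739931 counts, and histotripsy-treated replicate 2 (972363) and histotripsy-abscopal replicate 4 (896229) were below 1000000. Values per library are given as CPM, counts per 1000000 counts of that library. Ptprc, the gene of CD45, lay between 812 and 1160 CPM in all 7, and its log2 difference was -0.00 (95% interval -0.42 to 0.42). Keratin genes Krt5, Krt14 and Krt1 and the smooth muscle gene Tagln had no count in any of the 7. Xist, transcribed from the inactive X chromosome of female cells, was between 419 and 844 CPM, and the Y-linked Ddx3y had 0 counts in each. Of the other Y-linked genes, Eif2s3y also had none, and Kdm5d and Uty had too few counts to be tested. By these genes the 7 libraries read as female. The share of counts from an annotated rRNA, CT010467.1, ran from 6.66% to 13%.

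Gene by gene, none of the 10817 genes tested was called as different between histotripsy-treated and histotripsy-abscopal immune cells (edgeR's quasi-likelihood test, Benjamini-Hochberg adjusted p = 1 for the smallest, 0% called). At an unadjusted p under 0.05 there were 291 genes (2.69%), fewer than such a threshold passes on average by chance alone. Of these, 135 were higher (1.25% of those tested) and 156 lower (1.44%) in histotripsy-treated tumors. That split became 166 and 112 when libraries were scaled by their totals. Counts at this threshold in the lists below are to be read beside the 2.69%, and none of those genes passed adjustment. DESeq2 and limma-voom also called 0 genes, with 256 and 290 at an unadjusted p under 0.05. The CPM of the groups did not overlap for 286 genes that were higher in histotripsy-treated tumors (2.64%) and for 165 that were lower (1.53%). The median log2 difference, histotripsy-treated minus histotripsy-abscopal, was -0.01, and 5198 genes (48.1%) were on the higher side.

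The intervals show how large a difference these libraries could have missed. Of all genes tested, 8027 (74.2%) had a 95% interval that lay within 1 log2 unit of 0, a 2-fold change, on both sides. Among the 1779 genes with a mean of 100 CPM or more the share was 95.1%, with a median distance from centre to bound of 0.39, and among the 6437 genes between 10 and 100 CPM it was 87.9%. Below 10 CPM it was 26% of 2601 genes, so for most scarce transcripts the interval did not leave out a 2-fold difference. From the 5th to the 95th percentile the log2 differences ran from -0.48 to 0.47.

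**Figure D1:**
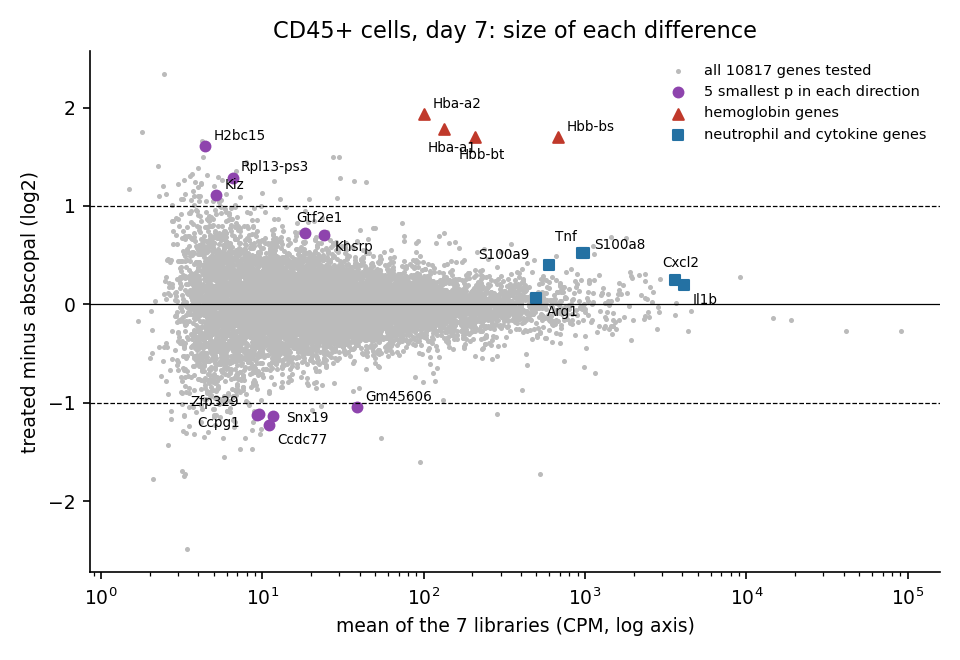
Log2 difference, histotripsy-treated minus histotripsy-abscopal (vertical axis), against the mean of the 7 libraries in CPM (horizontal log axis) for the 10817 genes tested, with dashed lines at a 2-fold change. Purple points are the 5 genes with the smallest p in each direction, red triangles the hemoglobin genes, which lie between 1.70 and 1.93, and blue squares Tnf, S100a8, S100a9, Arg1, Cxcl2 and Il1b, which lie between 0.07 and 0.52.

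The groups overlapped in scores of the most variable genes as well. On the first principal component of the 500 most variable genes, which held 31.2% of the variance, histotripsy-treated replicates 1 to 3 scored 2.53, 6.39 and 7.31. The histotripsy-abscopal replicates 1 to 4 scored 2.46, -4.99, 12.0 and -25.7, a range that encloses the histotripsy-treated libraries. The difference of means was 9.46, tested over the 35 ways to divide the libraries (two-sided exact permutation test, p = 0.429, adjusted p = 0.729 over the 3 components tested, smallest possible p 0.0286). With that smallest p, 1 component that separated the groups completely could not have passed the adjusted threshold on its own. On the second component, with 24.7% of the variance, histotripsy-treated replicate 2 scored -17.2, below the other 6 libraries, and the exact permutation p was 0.771 (two-sided, adjusted p = 0.771), and on the third, with 18.6%, it was 0.486 (adjusted p = 0.729). Over the genes tested, log2 CPM correlated between a histotripsy-treated and a histotripsy-abscopal library at 0.931 to 0.975 (12 pairs), between histotripsy-abscopal libraries at 0.912 to 0.957 (6 pairs) and between histotripsy-treated libraries at 0.950 to 0.971 (3 pairs). These correlations are across genes, which are not independent replicates.

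**Figure D2:**
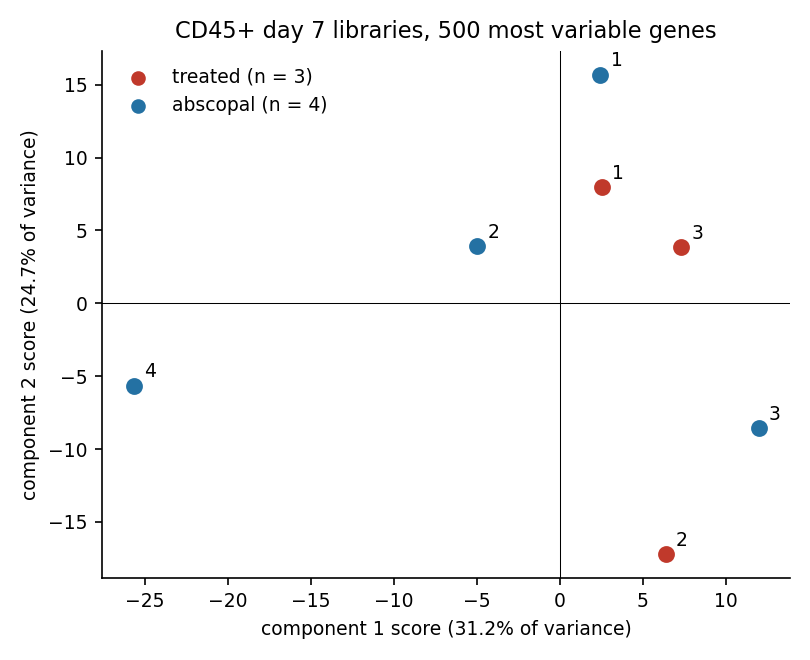
Scores of the 7 CD45+ day 7 libraries on the first 2 principal components (axes, with the share of variance), red for histotripsy-treated and blue for histotripsy-abscopal, each point labelled with its replicate number. Histotripsy-abscopal replicate 4 lies farthest from the rest at -25.7 on component 1, and histotripsy-treated replicate 2 lies lowest on component 2, at -17.2. Both are the libraries below 1000000 counts.

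None of the genes with the smallest p passed the adjusted threshold. Ccdc77, a coiled-coil protein gene on chromosome 6 (GRCm38, 120324323 to 120364374), had 5.84, 6.17 and 6.73 CPM in histotripsy-treated replicates 1 to 3 and 10.8, 13.4, 18.3 and 15.6 CPM in histotripsy-abscopal replicates 1 to 4. The groups did not overlap, with a log2 difference of -1.23 (standard error 0.30, unadjusted p = 0.000492, adjusted p = 1), and the control libraries ran from 8.66 to 19.8 CPM. Snx19, a sorting nexin, was at 6.20, 4.11 and 9.67 against 12.2, 14.2, 15.5 and 20.1 CPM (log2 difference -1.13). The others on the lower side were Gm45606 (-1.05), Ccpg1 (-1.12), a receptor for autophagy of the endoplasmic reticulum, and the zinc finger gene Zfp329 (-1.12). On the higher side, Khsrp, an RNA-binding protein that destabilizes AU-rich transcripts, was at 25.9, 32.9 and 35.3 CPM against 19.3, 15.9, 19.0 and 20.1 CPM (log2 difference 0.71). Gtf2e1, a subunit of the general transcription factor IIE, was at 27.7, 23.7 and 21.0 against 14.6, 14.2, 16.2 and 11.2 CPM (0.73). Histone gene H2bc15 (1.61), Kiz (1.11), a centrosomal gene, and the ribosomal pseudogene Rpl13-ps3 (1.29), whose reads are uncertain because it copies Rpl13, completed the list.

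Neutrophil genes, many of which differed on day 3, held no called gene on day 7. Of 23 tested, 20 were on the higher side in histotripsy-treated tumors and 0 had an unadjusted p under 0.05, with a median log2 difference of 0.32 against -0.01 over all genes. S100a8, a partner in calprotectin, which neutrophils and monocytes carry, was at 424, 1950 and 1130 CPM in histotripsy-treated tumors and at 209, 1060, 1150 and 743 CPM in histotripsy-abscopal tumors. Each group held a low library, replicate 1 in both, and the ranges overlapped, with a log2 difference of 0.52 (95% interval -0.53 to 1.57). Its partner S100a9 was at 188, 1200 and 720 against 117, 801, 734 and 414 CPM (0.40, 95% interval -0.76 to 1.55). Without histotripsy-treated replicate 2 the differences were -0.10 for S100a8, -0.26 for S100a9 and -0.10 for the list's median, and without the 2 libraries below 1000000 counts they were -0.11, -0.34 and -0.15. The smallest p values of the list belonged to Lcn2, an iron-sequestering protein (1.13), the chemokine receptor Cxcr2 (0.83) and Wfdc21 (1.07), each with overlapping groups. Trem1, a receptor that amplifies inflammatory signals, was at 47.4, 128 and 100 against 41.9, 74.3, 134 and 61.4 CPM (0.17). The granule genes Elane, Mpo, Prtn3 and Ctsg of immature neutrophils had too few counts to be tested, with at most 8.35 CPM in any of the 7 libraries. In control tumors the list's 30 genes summed to between 3470 and 10300 CPM, against 2570 to 7180 and 1860 to 5480 in the histotripsy-treated and histotripsy-abscopal groups.

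Chemokines that draw neutrophils and other myeloid cells were on the higher side for 8 of the 9 genes tested, with a median of 0.32. Ccl4, a CC chemokine gene on chromosome 11 (83662584 to 83664683), was the 1 gene with an unadjusted p under 0.05. It was at 2520, 1630 and 1460 CPM in histotripsy-treated and at 995, 1050, 1540 and 938 CPM in histotripsy-abscopal tumors, with a single overlap at histotripsy-abscopal replicate 3 (log2 difference 0.69, standard error 0.24, unadjusted p = 0.00845). The difference of Ccl4 was 0.42 without histotripsy-treated replicate 1. Cxcl2, a ligand of CXCR2 on chromosome 5 (90903871 to 90905938), was at 2840, 4890 and 4270 against 1490, 2330, 7530 and 1800 CPM. The highest and the 3 lowest of these values were all from histotripsy-abscopal tumors, and the difference was 0.25 (95% interval -0.86 to 1.36). Cxcl3, a close relative with the same receptor, was at 9.12, 51.4 and 26.9 against 0.941, 6.68, 59.1 and 16.7 CPM (0.32, 95% interval -1.79 to 2.44). Platelet chemokine genes Ppbp (1.49, unadjusted p = 0.0554) and Pf4 (0.64) had overlapping groups. Without histotripsy-abscopal replicate 3 the median of the 9 genes was 0.99 and the difference of Cxcl2 was 1.04 (unadjusted p = 0.0458).

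Among 18 tested chemokines and chemokine receptors of monocytes and lymphocytes, 2 were higher and 1 was lower at an unadjusted p under 0.05. Ccl22, a dendritic cell ligand of CCR4, was at 74.1, 53.5 and 32.4 against 38.1, 25.9, 37.3 and 19.0 CPM (0.76, unadjusted p = 0.00713, 0.40 without histotripsy-treated replicate 1). Ccr7, the receptor that guides dendritic cells and naive T cells to lymph nodes, was at 172, 189 and 92.1 against 139, 70.1, 106 and 60.3 CPM (0.63, unadjusted p = 0.0389). Cx3cr1, the fractalkine receptor of monocytes, was at 257, 214 and 226 against 270, 283, 272 and 471 CPM, without overlap (-0.52, unadjusted p = 0.032). Its difference was -0.26 without histotripsy-abscopal replicate 4. Cxcl9, an interferon gamma-induced ligand of CXCR3, was at 316, 109 and 272 against 357, 241, 269 and 298 CPM (-0.36, 95% interval -1.01 to 0.30). The list's median was 0.12.

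The interleukin 1, TNF and NF-kB genes, 29 of which were tested, had a median of 0.08, with 18 on the higher side and 1 gene, Il18, lower at an unadjusted p under 0.05. Il1b, the main secreted interleukin 1 of myeloid cells, lies on chromosome 2 (129364570 to 129371139) and was at 5250, 4980 and 3200 CPM in histotripsy-treated and 3920, 4160, 4400 and 2750 CPM in histotripsy-abscopal tumors. The groups overlapped, with a log2 difference of 0.20 whose 95% interval of -0.37 to 0.76 left out a 2-fold change in either direction. Tnf, on chromosome 17 (35199381 to 35202007), was at 1560, 1290 and 763 against 656, 775, 1270 and 570 CPM (0.52, 95% interval -0.07 to 1.12). Il6 was at 16.4, 15.4 and 13.5 against 4.70, 5.01, 17.6 and 7.81 CPM (0.76, unadjusted p = 0.0833). Il23a, a subunit of interleukin 23, was at 21.9, 54.5 and 14.7 against 2.35, 5.01, 49.2 and 14.5 CPM (0.63, 95% interval -1.18 to 2.43). Il18, a cytokine matured by inflammasomes, was at 15, 19.5 and 19.3 against 35.7, 25.9, 23.9 and 16.7 CPM (-0.61, unadjusted p = 0.0402).

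Macrophage genes also overlapped between the groups for most members. The 17 tested genes of alternatively activated and wound macrophages had a median of -0.02, with 0 at an unadjusted p under 0.05. Arg1, the arginase of wound and tumor macrophages, was at 499, 417 and 645 CPM against 365, 422, 706 and 433 CPM (0.07, 95% interval -0.77 to 0.90). Retnla, a marker of macrophages activated by interleukin 4, was at 80.3, 10.3 and 169 against 317, 65.1, 5.63 and 32.4 CPM (-0.30, 95% interval -1.90 to 1.31), and its difference was 1.32 without histotripsy-abscopal replicate 1. The 24 lipid-associated and complement macrophage genes had a median of -0.13. Of these, C1qb, a chain of the complement component C1q, was at 171, 135 and 205 against 270, 245, 208 and 230 CPM, without overlap (-0.52, unadjusted p = 0.0497), and C1qa was at 252, 145 and 244 against 364, 278, 222 and 360 CPM (-0.56). The complement receptor C5ar1 was on the other side, at 89.8, 116 and 148 against 59.7, 71.0, 103 and 60.3 CPM (0.64, unadjusted p = 0.0638). In the antioxidant, iron and heme list, with a median of 0.06, Slc7a11, the cystine importer on which glutathione synthesis depends, was at 135, 282 and 100 against 76.7, 87.7, 321 and 102 CPM (0.18, 95% interval -0.98 to 1.33). Its difference was -0.50 without the libraries below 1000000 counts.

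All 40 type I interferon-induced genes were tested, and 36 had a 95% interval within 1 log2 unit of 0. The median was -0.09, with 14 on the higher side, and 1 gene, Ifitm3, had an unadjusted p under 0.05. Ifitm3, a membrane protein that blocks virus entry, was at 665, 400 and 714 against 1040, 957, 674 and 771 CPM (-0.58, unadjusted p = 0.0177, -0.37 without histotripsy-treated replicate 2). Ifit3 was at 37.6, 19.5 and 78.2 against 48.0, 55.9, 56.3 and 41.3 CPM, with the lowest and highest values both in histotripsy-treated tumors (-0.15, 95% interval -0.82 to 0.52). Isg15, a ubiquitin-like protein, was at 490, 239 and 483 against 332, 301, 532 and 196 CPM (0.21, 95% interval -0.44 to 0.86). The 23 tested interferon gamma response genes had a median of -0.13 with 17 on the lower side and 0 at an unadjusted p under 0.05. MHC class I genes (18 tested) had a median of -0.03 and class II genes (12 tested) of -0.13, with 15 and 11 intervals within 1 log2 unit. H2-Ab1, a class II beta chain, was at 3220, 1900 and 2080 against 3610, 2630, 1730 and 2220 CPM (-0.13, 95% interval -0.58 to 0.33).

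Dendritic cell genes were on the higher side for 16 of 21, with a median of 0.13, and Ccr7, above, and Fscn1 had an unadjusted p under 0.05. Fscn1, an actin-bundling protein of mature dendritic cells, was at 150, 83.3 and 62.7 against 90.8, 58.4, 44.3 and 41.3 CPM (0.70, unadjusted p = 0.0133). Its difference was 0.24 without histotripsy-treated replicate 1. The groups overlapped for both genes.

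T cell receptor and coreceptor genes, all 25 of which were tested, had a median of -0.10, with 20 intervals within 1 log2 unit. Cd8a, a chain of the coreceptor of cytotoxic T cells, was at 110, 166 and 189 CPM in histotripsy-treated and at 106, 204, 226 and 189 CPM in histotripsy-abscopal tumors (-0.27, 95% interval -0.99 to 0.44). Cd4 was at 20.8, 27.8 and 16.8 against 21.2, 11.7, 15.5 and 14.5 CPM (0.35, 95% interval -0.30 to 1.01). The 1 member with an unadjusted p under 0.05 was Tcf7, a transcription factor of naive and stem-like memory T cells on chromosome 11 (52252371 to 52283014). It was at 69.3, 63.8 and 69.0 against 56.0, 34.2, 36.6 and 22.3 CPM, without overlap (0.78, unadjusted p = 0.0277), within a control range of 23.7 to 93.2 CPM.

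Of the 28 tested cytotoxic effectors and NK receptors, 18 were on the higher side (median 0.22), and Xcl1, Klrg1 and Klra7 had an unadjusted p under 0.05. Over all genes tested, 2.69% had such a p. Xcl1, a chemokine that draws cross-presenting dendritic cells, was at 73.4, 53.5 and 66.9 against 40, 27.5, 46.4 and 33.5 CPM, without overlap (0.77, unadjusted p = 0.012). Klrg1, a receptor of effector T and NK cells, was at 47.1, 46.3 and 43.7 against 28.2, 39.2, 24.6 and 26.8 CPM, also without overlap (0.58, unadjusted p = 0.0189). Klra7, a receptor of the Ly49 family whose near-identical members make its reads uncertain, was at 19.0, 9.26 and 31.5 against 16.9, 5.84, 10.5 and 4.46 CPM (0.99, unadjusted p = 0.0253). Its difference was 0.55 without histotripsy-treated replicate 3. Gzmb, granzyme B, was at 82.5, 92.6 and 222 against 48.4, 80.1, 205 and 58.0 CPM (0.40, 95% interval -0.45 to 1.24, and -0.19 without histotripsy-treated replicate 3). Ifng, interferon gamma, was at 102, 97.7 and 111 against 87.0, 121, 120 and 157 CPM (-0.26, 95% interval -0.92 to 0.40). Ncr1, an activating NK receptor, was at 47.4, 33.9 and 61.4 against 58.8, 29.2, 28.8 and 30.1 CPM (0.33).

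Checkpoint and regulatory T cell genes (18 tested, median -0.07) held 2 members lower and 1 higher at an unadjusted p under 0.05. Havcr2, the checkpoint receptor TIM-3, was at 25.2, 33.9 and 42.9 against 38.6, 50.9, 78.1 and 39.1 CPM (-0.65, unadjusted p = 0.0161). Its difference was -0.39 without histotripsy-abscopal replicate 3. Cd244a was at 43.1, 46.3 and 57.6 against 61.6, 54.3, 67.5 and 74.8 CPM (-0.43, unadjusted p = 0.0207). Il2ra, the alpha chain of the interleukin 2 receptor, was at 47.4, 35.0 and 38.7 against 35.7, 29.2, 24.6 and 24.5 CPM (0.46, unadjusted p = 0.0426). All 3 genes had overlapping groups.

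The B cell and immunoglobulin list went both ways, and the size of the differences depended on single libraries. Of 21 genes tested, 14 were on the higher side (median 0.71), 4 of them at an unadjusted p under 0.05 and 2 lower, and no interval lay within 1 log2 unit. Ebf1, a transcription factor of the B lineage, was at 33.9, 86.4 and 12.2 against 7.53, 20.9, 16.2 and 13.4 CPM (1.49, unadjusted p = 0.0266). Fcmr, the receptor for IgM, Ighd and Iglc2 were the other 3 and were chosen after their values were seen. For Ebf1, Fcmr, Ighd and Iglc2 alike the highest of the 7 values was in histotripsy-treated replicate 2. Without that library the difference of Ebf1 was 0.68 and the list's median 0.20. Igha, the constant region of IgA, was at 248, 274 and 163 CPM against 2200, 519, 152 and 136 CPM (-1.73, unadjusted p = 0.0335). Jchain, which joins IgA and IgM units and is made by plasma cells, was at 51.8, 47.3 and 37.8 against 395, 72.6, 38.0 and 24.5 CPM (-1.60, unadjusted p = 0.0195). Histotripsy-abscopal replicate 1 held the high values of Igha, Jchain, Igkc and Iglc1, and without it the differences were -0.32 for Igha and -0.08 for Jchain. Counts of immunoglobulin constant regions can be shared between near-identical segments and are uncertain.

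Cells from outside the CD45+ gate were read from markers. Of the 10 melanocyte and pigment genes tested, 2 were on the higher side (median -0.37), and the list summed to 330, 285 and 450 CPM in histotripsy-treated and 267, 192, 673 and 335 CPM in histotripsy-abscopal tumors. Pmel, a melanosome fibril protein, was at 8.39, 12.3 and 29.0 against 16.5, 7.51, 61.2 and 6.69 CPM (-0.52), with a difference of 0.56 without histotripsy-abscopal replicate 3, and Mlana (-0.43) was at 0.40 without it. The list's median was then 0.40. In the stromal list 4 of 20 genes were tested, 1 on the higher and 3 on the lower side (median -0.21). Sparc, a matrix protein, was at 15, 4.11 and 22.7 against 19.8, 35.9, 27.4 and 24.5 CPM (-0.85, unadjusted p = 0.0495). Its difference was -0.56 without histotripsy-treated replicate 2.

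Red cell transcripts gave the largest list median, 1.70, with all 7 tested erythroid and platelet genes on the higher side. The 5 with an unadjusted p under 0.05 were Hba-a2, Hbb-bt, Car2 and, chosen after their values were seen, Hba-a1 and Hbb-bs. Hba-a2, an alpha globin, was at 23, 49.4 and 447 CPM in histotripsy-treated and 8.47, 15, 55.6 and 109 CPM in histotripsy-abscopal tumors (1.93, unadjusted p = 0.0206). The 4 hemoglobin genes together reached 4810 CPM in histotripsy-treated replicate 3, against 264 and 595 CPM in replicates 1 and 2 and 79.0, 236, 662 and 1240 CPM in histotripsy-abscopal tumors. Without that library the differences were -0.41 for Hba-a2 and -0.09 for Hbb-bt and the list's median, and without histotripsy-abscopal replicate 4 they were 2.74 for Hba-a2 and 2.43 for Hbb-bt. The red cell genes Alas2 and Slc4a1 were at most 2.10 CPM in each library. An alternative fit took the replicate number as a block, on replicates 1 to 3. It called the 4 hemoglobin genes (edgeR's quasi-likelihood test, smallest adjusted p = 0.0332), though no label ties same-numbered libraries to 1 animal. Reads of the duplicated globin genes can be shared and are uncertain. The part of these red cell transcripts in other differences was not tested.

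Among the remaining lists, glycolysis and hypoxia genes were on the lower side for 19 of 24 (median -0.21), and Adm, the vasodilator adrenomedullin, was the 1 member with an unadjusted p under 0.05. It was at 6.93, 4.11 and 5.05 against 9.41, 8.35, 26.7 and 7.81 CPM, without overlap (-1.27, unadjusted p = 0.00769, -0.66 without histotripsy-abscopal replicate 3). Cell cycle genes (33 tested, median 0.04) had 0 at an unadjusted p under 0.05 and 30 intervals within 1 log2 unit, and Mki67, a proliferation marker, was at 44.9, 47.3 and 47.5 against 42.3, 40.9, 57.7 and 48.0 CPM (-0.06, 95% interval -0.49 to 0.37). Immediate early and heat shock genes (30 tested, median -0.05) also had 0, with Hspa1a at 1070, 910 and 626 against 1180, 1100, 1960 and 1250 CPM, without overlap (-0.70, unadjusted p = 0.0583), and uncertain reads because Hspa1b is nearly identical. Matrix proteases and inhibitors (16 tested, median -0.06) held Mmp25, a neutrophil membrane protease, at 55.1, 38.1 and 42 against 43.3, 23.4, 21.1 and 29.0 CPM (0.58, unadjusted p = 0.0303). The 5 tested genes of eosinophils, mast cells and basophils had a median of 0.05. Hmgb1, a chromatin protein that dying cells release, was at 109, 121 and 103 against 96.4, 119, 79.5 and 115 CPM (0.08, 95% interval -0.39 to 0.54).

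**Figure D3:**
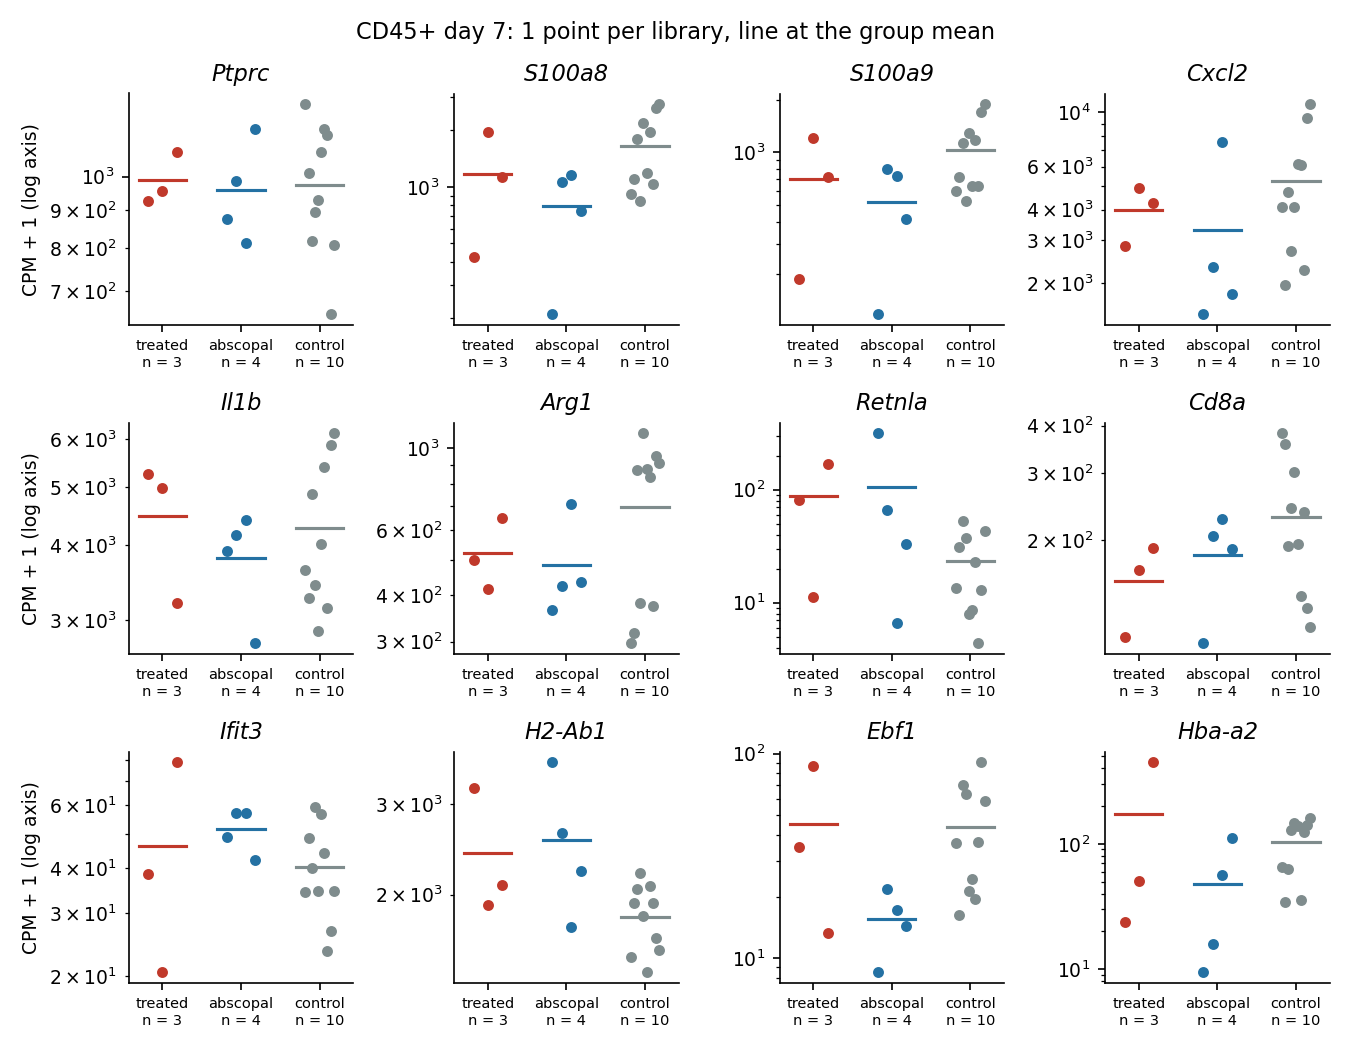
CPM plus 1 (vertical log axis, scaled per gene) of 12 genes in each CD45+ day 7 library, 1 point per library, for histotripsy-treated (3, red), histotripsy-abscopal (4, blue) and control (10, gray) tumors, with a line at the group mean. For each of the 12 genes the red and blue points overlap, and for Hba-a2 a single red point, at 447 CPM, lies above all the others.

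Control tumors gave the background. Against them, neither histotripsy-treated nor histotripsy-abscopal immune cells had a called gene on day 7 (edgeR's quasi-likelihood test, 341 and 806 genes at an unadjusted p under 0.05, smallest adjusted p = 0.699 and 0.494). S100a8 ran from 839 to 2760 CPM in the 10 control libraries (median 1490), Cxcl2 from 1970 to 10800 (median 4410), Il1b from 2880 to 6150 (median 3830) and Arg1 from 296 to 1100 (median 856). All Arg1 values of the 2 histotripsy groups lay inside that range. For Cxcl2, 2 histotripsy-abscopal libraries (1490 and 1800 CPM) were below it, for Il1b 1 was (2750 CPM), and for S100a8 the replicate 1 libraries of both groups, at 424 and 209 CPM, were below it along with histotripsy-abscopal replicate 4 (743 CPM). Retnla was at or below 51.4 CPM in control tumors, and 2 histotripsy-treated and 2 histotripsy-abscopal libraries were above that.

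The same comparison on day 3 gave 558 called genes of 10264 tested, 500 higher (4.87%) and 58 lower (0.565%) in histotripsy-treated tumors, from 6 histotripsy-treated and 7 histotripsy-abscopal libraries. Those libraries are separate from the 7 of day 7. Of the 500 higher genes, 485 could be tested on day 7. Their median log2 difference, 1.09 on day 3 where their values chose them, was -0.03 on day 7, and 220 (45.4%) kept the positive sign, against 47.7% with the same sign among all genes tested on both days. At an unadjusted p under 0.05 on day 7 there were 3 higher and 5 lower, 1.65% of the 485 against 2.61% of all genes tested on both days. For 454 of the 485 (93.6%) the day 7 interval left out the day 3 value, a count that ignores the error of the day 3 value. Over all genes, whose median on day 3 was -0.03, the share was 21.5%. These shares are not a fair contrast, since the 485 were chosen for large day 3 values. The 58 lower genes moved from a median of -0.66 to 0.02, with 27 of the same sign. By list, the day 3 medians over tested members were 1.93 for neutrophil genes (16 of 22 called higher) and 2.16 for neutrophil-attracting chemokines (6 of 9). They were 0.67 for the interleukin 1 and TNF list (11 of 28) and 0.75 for the wound macrophage list (3 of 17), where the day 7 medians were 0.32, 0.32, 0.08 and -0.02. Other lists moved differently. The erythroid and platelet median was 2.29 on day 3 and 1.70 on day 7. Cytotoxic and NK genes went from -0.36 to 0.22, and B cell and immunoglobulin genes from -0.30 to 0.71. The log2 differences of single genes were, for S100a8, 2.52 on day 3 and 0.52 on day 7, for Cxcl2 2.16 and 0.25, for Il1b 1.30 and 0.20, and for Il23a 3.56 and 0.63.

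**Figure D4:**
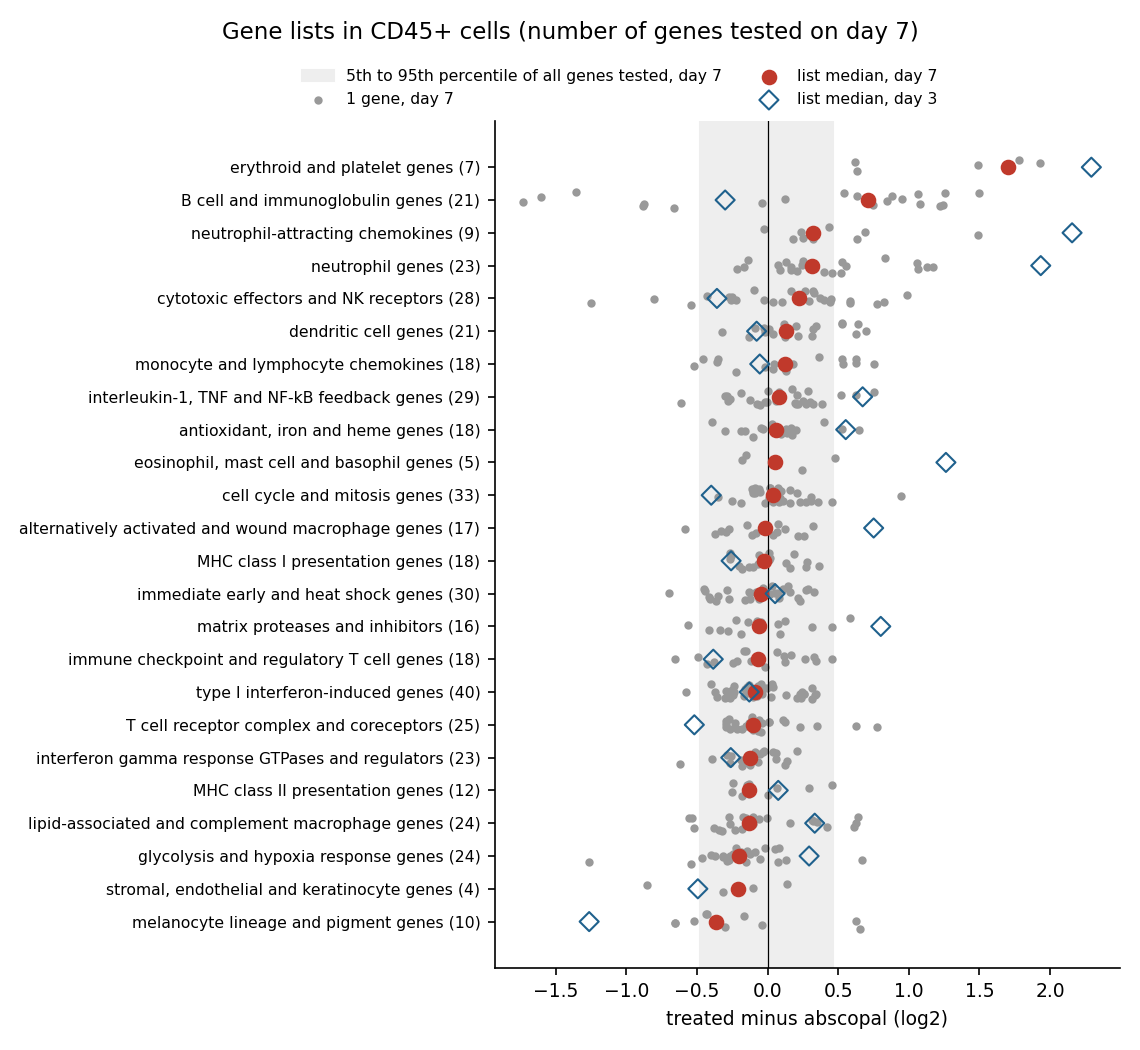
Log2 difference, histotripsy-treated minus histotripsy-abscopal (horizontal axis), for the genes of 24 lists in CD45+ cells, with the number tested in parentheses. Gray points are single genes on day 7, red points list medians on day 7, open diamonds list medians on day 3, and the shaded band runs from -0.48 to 0.47, the 5th to the 95th percentile of all genes on day 7, inside which all list medians of day 7 fall but those of the erythroid (1.70) and B cell (0.71) lists.

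A test of the change itself, in a fit of all 34 CD45+ libraries of both days, called 8 of 11251 genes (0.0711%), all with a lower signed difference on day 7 (edgeR's quasi-likelihood test, 1195 at an unadjusted p under 0.05). None of the neutrophil, chemokine or cytokine genes named above was among them, with adjusted p = 0.414 for S100a8, 0.326 for Cxcl2 and 0.241 for Il1b. The 8 genes are outside the rule for named genes and were chosen after their values were seen. Tgm2, a transglutaminase of macrophages on chromosome 2 (158116402 to 158146436), was at 327, 330 and 410 CPM against 529, 534, 531 and 368 CPM on day 7, and on day 3 its median was 637 CPM (387 to 804) against 341 CPM (273 to 380). Its difference went from 1.05 to -0.50, a change of -1.55 (standard error 0.30, adjusted p = 0.0403). Dhx40, an RNA helicase, was at 55.1, 67.9 and 50 against 56.0, 62.6, 101 and 50.2 CPM on day 7, and at a median of 154 against 56.2 CPM on day 3 (change -1.93, adjusted p = 0.0448). P2ry13, a receptor for ADP on myeloid cells, changed by -2.64 (adjusted p = 0.0448), with differences of 2.39 on day 3 and -0.24 on day 7. It was scarce on day 7, at 5.84, 11.3 and 5.89 against 8.94, 6.68, 9.84 and 6.69 CPM. The other 5 were scarce on day 7 as well. Cebpe, a transcription factor of late granulocyte maturation (change -3.79, adjusted p = 0.0403), and Egfr (-4.44, adjusted p = 0.0403) were at most 6.68 CPM in any day 7 library and were filtered out of the day 7 fit. Ppp1r3d (-2.42), Slc1a2 (-4.53) and Pde6h (-2.63) had adjusted p = 0.0448, 0.0492 and 0.0492. On day 7 Slc1a2 was at 1.46, 1.03 and 1.68 against 0.941, 3.34, 14.8 and 0 CPM. Its day 7 difference, in the fit of day 7 alone, was -0.01 without histotripsy-abscopal replicate 3. These calls were close to the threshold, and of the 8 DESeq2 called only Tgm2 and Dhx40. Without day 7 histotripsy-treated replicate 1, 2 or 3, day 7 histotripsy-abscopal replicate 2 or 3, day 3 histotripsy-treated replicate 2 or 6, or day 3 histotripsy-abscopal replicate 2, 5 or 6, there were 0. There were 1 or 2 without day 3 histotripsy-abscopal replicate 4 or 3 or histotripsy-treated replicate 3, and 13, 21 and 101 without day 3 histotripsy-abscopal replicate 1, histotripsy-treated replicate 1 and histotripsy-treated replicate 5.

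**Figure D5:**
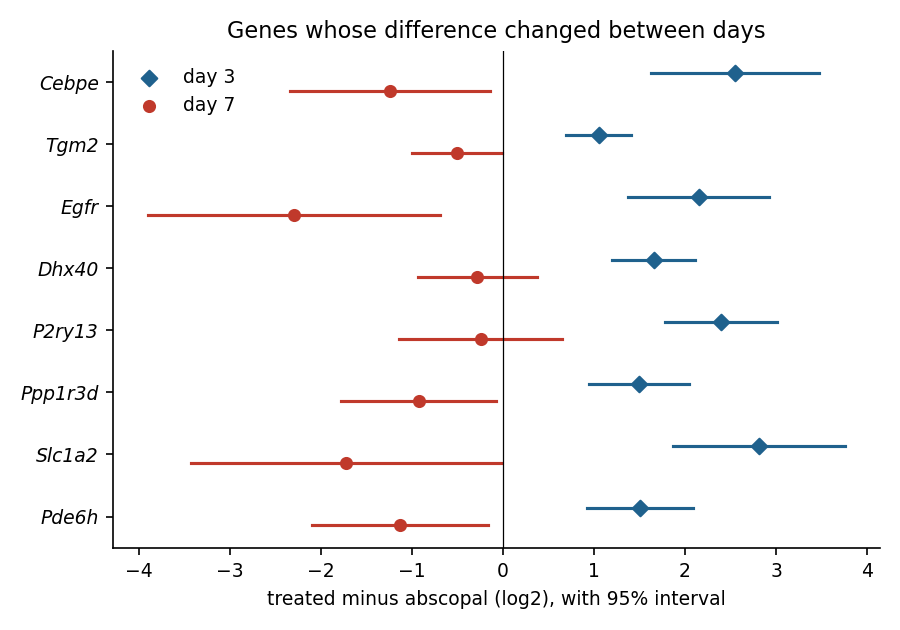
Log2 difference, histotripsy-treated minus histotripsy-abscopal, with 95% intervals (horizontal axis), on day 3 (blue diamonds) and day 7 (red circles) for the 8 genes called for a change between days in the fit of 34 libraries. On day 3 all 8 intervals lie above 0, and on day 7 those of Dhx40 and P2ry13 include 0 and the other 6 lie below it, Tgm2 only just, with an upper bound of -0.01.

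In the CD45- cells of the same day, which hold the melanoma cells, 0 of 10996 genes (0%) were called between histotripsy-treated and histotripsy-abscopal tumors, with 741 at an unadjusted p under 0.05 (edgeR's quasi-likelihood test, smallest adjusted p = 0.608). The globin genes were also on the higher side there, with a log2 difference of 3.52 for Hba-a2 and 2.47 for Hbb-bt.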

How the data were processed

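CD45+ cells had been sorted from B16F10 tumors and sequenced by QuantSeq in 101 bp single-end reads. The authors trimmed reads with Trim Galore (version 0.5.0), aligned them to GRCm38 with STAR (2.6.0), merged reads sharing a molecular identifier (Lexogen QuantSeq, 2.3.6) and counted reads per gene with featureCounts. The deposited values are raw counts, 1 table per fraction and day, with 55487 named lines, 120 of which repeat a symbol. The strand setting is not given in the sources used here, so overlapping and near-identical genes are uncertain. The single unnamed line holds column sums (100% of the totals) and was dropped. Of the columns, 0 had no sample.

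Libraries were grouped by their labels (3 histotripsy-treated, 4 histotripsy-abscopal and 10 control on day 7). One fit of the 17 libraries was made in edgeR (4.0.16, R 4.3.3), scaled by TMM, on genes kept by filterByExpr. This filter asks for a CPM worth about 10 counts in about as many libraries as the smallest group holds, and for 15 counts in all. A gene kept can therefore have fewer than 10 counts in some libraries. The quasi-likelihood test of edgeR was adjusted by Benjamini-Hochberg over every gene kept, at 0.05. The study's methods name BioJupies and no test for single genes. For this contrast the paper reports inflammatory response and neutrophil chemotaxis pathways as higher in histotripsy-treated tumors. That is a pathway measure, unlike the gene tests here. The paper also reports no divergence of these groups on principal components. The change between days was an interaction in a fit of 34 libraries. Intervals are 95% and come from the fitted standard error. Each pair of libraries within a group differed by more than sampling noise, with chi-square values of 3.56 to 11.0 per degree of freedom. Principal components used log10 of CPM with a pseudocount of 1 and Z-scores of 500 genes (numpy 2.4.6), and figures matplotlib 3.10.9. The functions were tested on simulated data. Positions were read from GENCODE genes on GRCm38 by symbol, for 113 of 115 named genes (10642 of the genes tested). Total counts of 896229 to 2739931 set the precision.

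Named genes are those with the largest called changes, or the 5 smallest p in a direction with fewer than 5 calls, 3 genes per list by p, and 26 fixed genes. The members and lists were chosen with earlier results of these data known, so they are not independent of them. Lists are described by counts and medians, without a set test, and 1 listed gene had no line. Alternatives were DESeq2 1.42.0, limma-voom (limma 3.58.1), library totals, median-of-ratios factors, other filters, fewer libraries, each replicate left out and the replicate number as a block. No sequence is printed, since no gene was called.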

Additional observations from a re-analysis of the deposited data

Results flagged for a closer look

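Within the histotripsy-abscopal group, 13 of the 115 named genes (11.3%) had 1 library whose gap to the rest was past Dixon's 95% critical value for 4 samples. Chance alone flags about 1 in 20 groups. Groups of 3 cannot be tested in this way, so the histotripsy-treated libraries were not.

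Histotripsy-abscopal replicate 3 stood apart for Cxcl2 (7530 CPM, against 1490 to 2330 in the others), the cystine importer Slc7a11 (321 against 76.7 to 102), Adm (26.7 against 7.81 to 9.41) and the interferon signal transducer Stat2, which was low (67.5 against 113 to 116). Replicate 1 stood apart for Jchain (395 against 24.5 to 72.6), the eosinophil receptor Siglecf (13.6 against 1.12 to 2.81), Ncr1 (58.8 against 28.8 to 30.1) and the endothelial and platelet adhesion gene Pecam1, which was low (29.2 against 42.4 to 44.2). Replicate 4, which had the fewest counts (896229), stood apart for H2bc15 (5.58 against 1.41 to 1.67), Cx3cr1 (471 against 270 to 283), the transcription factor Klf4 (436 against 304 to 326) and, on the low side, Tgm2 (368 against 529 to 534) and the mitotic gene Cdc20 (0 against 5.01 to 5.63).

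The other 8 results singled out are the genes whose difference between histotripsy-treated and histotripsy-abscopal tumors was called as changed from day 3 to day 7 (edgeR's quasi-likelihood test of the interaction). The changes in log2 difference were -3.79 for Cebpe, -1.55 for Tgm2, -4.44 for Egfr, -1.93 for Dhx40, -2.64 for P2ry13, -2.42 for Ppp1r3d, -4.53 for Slc1a2 and -2.63 for Pde6h.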

How the results depend on the processing

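No gene was called with DESeq2, limma-voom, library totals, median-of-ratios factors, the stricter filter, the 7 libraries alone, the libraries of 1000000 counts or more, or any replicate left out (0 to 0). Without a filter 17 genes were called, among them globin, immunoglobulin and B cell genes. With the replicate block, on replicates 1 to 3, 4 were (Hba-a1, Hba-a2, Hbb-bs and Hbb-bt, smallest adjusted p = 0.0332 in edgeR), and 426 had an unadjusted p under 0.05. Deviations of same-numbered libraries correlated at 0.338, 0.087 and 0.194, and treated replicate 2 correlated best with abscopal replicate 4 (0.158). This does not establish a pairing, and whether same-numbered libraries share an animal is not known. Summed hemoglobin was higher in the treated library of each number (264 against 79, 595 against 236 and 4810 against 662 CPM), and unpaired abscopal replicate 4 was at 1240 CPM. Left-out replicates gave 235 (without abscopal 2) to 472 (without abscopal 3) genes at an unadjusted p under 0.05. The change between days was called for 54 genes by DESeq2, which held 2 of the 8 (Tgm2 and Dhx40), 287 without a filter, which held all 8, 0 with library totals, 0 in libraries of 1000000 counts or more, and 0 to 101 with a replicate left out. Of 113 named genes tested, 24 changed sign under at least 1 alternative, 12 of them by more than 1 standard error of the reported value, and these 12 follow. In libraries of 1000000 counts or more the log2 differences were -0.50 for Slc7a11, -0.11 for S100a8 and -0.34 for S100a9. Under the replicate block Xist was 0.24. With a replicate left out, values ran from -0.10 to 0.92 for S100a8, -0.26 to 0.85 for S100a9, -0.12 to 0.74 for Cma1, -0.78 to 0.09 for Timp1, -0.41 to 2.74 for Hba-a2, -0.094 to 2.43 for Hbb-bt, -0.20 to 0.24 for Xist, -1.13 to 1.32 for Retnla, -0.19 to 1.05 for Gzmb, -1.29 to 0.56 for Pmel and -0.80 to 0.40 for Mlana. The causes were not tested. Library totals moved the median of all genes to 0.03. With 3 and 4 libraries, most intervals of genes below 10 CPM did not leave out a 2-fold difference.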
